A study of Homo sapiens with 3 samples.

Results

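Transcripts annotated for nonsense-mediated decay were followed against the coding transcripts of the same genes after knockdown of SRSF5 in HaCaT cells. The transcripts were selected on their FPKM values (fragments per kilobase of transcript, scaled to the size of the library). Of 247012 transcripts listed in each library, 15313 on chromosomes were of the decay type in a gene with at least 1 coding transcript. In 3959 of them both the decay transcript and the highest coding transcript of its gene reached 2 FPKM in all 3 libraries. Leaving out 3 second copies from the shared ends of the sex chromosomes, 3956 decay transcripts of 2209 genes were analysed. Their levels are therefore a description, and members that would fall below 2 FPKM in any library cannot be among them. Just inside the threshold were HSD17B12-212 (lowest value 2.004 FPKM), RHBDF1-204 (2.005 FPKM) and PIGT-242 (2.005 FPKM), and just outside were TRMT12-203, ARIH2-207 and ABCC4-211 (each 1.999 FPKM).

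HaCaT is a line of immortalized human keratinocytes. The 3 libraries were 1 transfected with control siRNA, labelled wild type, and 1 with each of 2 different siRNAs against SRSF5, labelled SRSF5 knockdown and called siRNA 1 and siRNA 2 here. Every transfection used 10 nM siRNA. The control had no replicate and neither siRNA was repeated, so differences between the SRSF5 libraries combine siRNA, culture and library, and these cannot be told apart. SRSF5, the targeted gene, had a highest coding value of 7.81 FPKM in the control, 3.55 with siRNA 1 (45.5% of the control) and 1.44 with siRNA 2 (18.5%). Its own decay transcript SRSF5-211 was below 2 FPKM with siRNA 2 and is not among the 3956. SRSF5-211 stood at a ratio to coding of 0.489, 0.587 and 0.637 in the control, siRNA 1 and siRNA 2. All 12 epithelial and keratinocyte markers reached 2 FPKM in every library, 0 of 7 fibroblast and 0 of 4 melanocyte markers did, and of 4 immune markers CD68 did, a lysosomal gene. The libraries held 4458622346, 4228110936 and 4126967673 base overlaps with transcripts.

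Nonsense-mediated decay is the quality control pathway that degrades messenger RNA in which a ribosome stops well before the end. In mammals the usual mark is an exon junction complex, left by splicing, that lies downstream of the stop codon and recruits UPF and SMG proteins. Cells also use the pathway to set levels: many splicing factors, SR proteins among them, include an exon with a stop codon in their own transcript and so lower their own message. SRSF5 is an SR protein that binds exons and takes part in splice site choice.

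The feature that defines the class is the stop codon, so the last 48 coding bases are shown for 7 of the decay transcripts on which the results below turn. Each runs 5′ to 3′ along the transcript (GENCODE 29, GRCh38), with the premature stop codon in capitals.
IFITM2-203: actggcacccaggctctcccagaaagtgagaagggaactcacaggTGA
CARD19-202: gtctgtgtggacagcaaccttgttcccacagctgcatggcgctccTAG
SNRNP70-202: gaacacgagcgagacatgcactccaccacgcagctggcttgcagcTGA
SRSF4-206: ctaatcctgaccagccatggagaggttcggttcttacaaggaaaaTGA
SRSF6-202: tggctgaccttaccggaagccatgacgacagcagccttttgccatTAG
TRA2B-206: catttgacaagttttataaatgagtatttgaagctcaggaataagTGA
RPL26-211: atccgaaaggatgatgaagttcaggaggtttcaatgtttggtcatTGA

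For IFITM2-203 (chr11:308800-308802, plus strand), CARD19-202 (chr9:93111102-93111104, plus), SRSF4-206 (chr1:29166009-29166011, minus) and SRSF6-202 (chr20:43459302-43459304, plus), all 48 bases shown lie in no coding transcript of the gene. In RPL26-211 (chr17:8380680-8380682, minus) 24 of the 48 do, and in SNRNP70-202 (chr19:49102137-49102139, plus) 21 do. In TRA2B-206 (chr3:185931772-185931774, minus) 0 do: its stop codon is in exon 2 of 10, in bases that a coding transcript also holds. The stop codon of IFITM2-203 is in exon 2 of 3 and that of SRSF4-206 in exon 4 of 8.

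A stop codon was known for 3869 of the 3956 decay transcripts. In 3838 of them (99.2%) it lay more than 50 bases before the last exon junction, the usual distance rule for decay, and the median distance was 282 bases, with quartiles of 148 and 556. TGA was the stop codon in 2239 (57.9%), TAA in 881 (22.8%) and TAG in 749 (19.4%). The stop codon lay in bases of no coding transcript in 1328 (34.3%), and in 2541 it lay in sequence that a coding transcript of the gene also carries. The median decay to coding ratio in the control was 0.736 in the first kind and 0.830 in the second. Median log2 changes of that ratio were 0.004 and 0.000 (siRNA 1 and siRNA 2) for the first and 0.003 and 0.003 for the second. The histogram of distances shows a steep edge at 50 bases, which is how the annotation defines the class and not a finding.

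**Figure D1:**
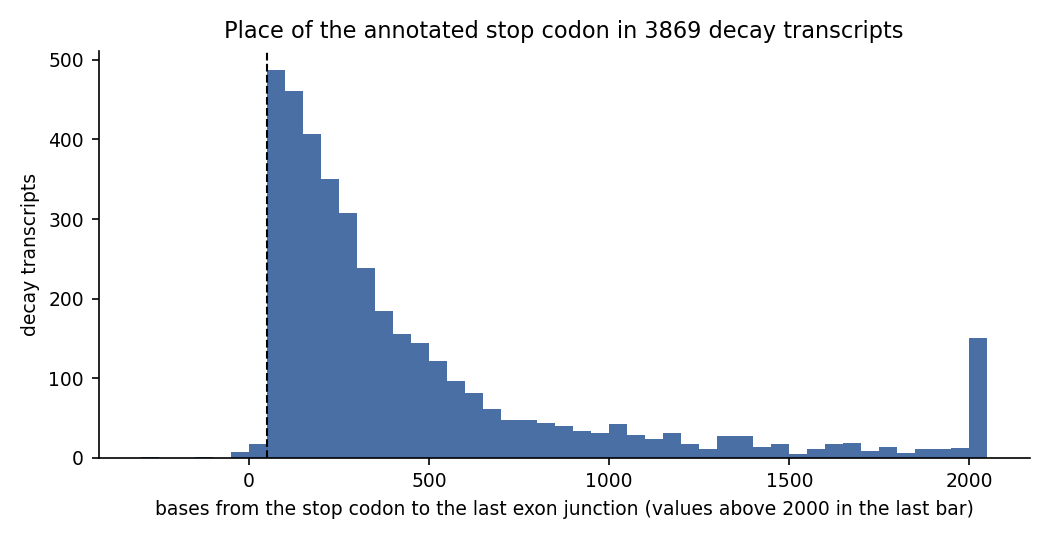
Histogram of the distance in bases from the annotated stop codon to the last exon junction (x) for 3869 decay transcripts (y, number of transcripts, 50 bases a bar). The dashed line is at 50 bases; 3838 transcripts lie beyond it, and the last bar gathers 150 transcripts above 2000 bases.

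Decay transcripts were listed at levels close to those of the coding transcripts. The median decay to coding ratio was 0.789 in the control, 0.791 under siRNA 1 and 0.792 under siRNA 2. Its quartiles in the control were 0.592 and 1.005, and the full range was 0.0485 to 5.09. Above the highest coding transcript were 1015 decay transcripts (25.7%) in the control, 1005 under siRNA 1 and 976 under siRNA 2, and 902 were above it in all 3 libraries. In these values a read base counts for every transcript it overlaps, apart from genes whose totals do not add up this way, so a decay transcript inherits the reads of the exons it shares with coding transcripts. A high ratio thus does not measure how much of the message is in the decay form. Of the 3956, 1585 (40.1%) have no exon base outside the coding transcripts of their gene, and the median share of such own bases was 2.62%, the highest 89.0%.

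Some decay transcripts were listed well above coding ones in every library. HSPA9-211 of the mitochondrial chaperone mortalin had ratios of 5.09, 4.94 and 4.41 in the control, siRNA 1 and siRNA 2, at 191.8, 177.2 and 182.7 FPKM. It is 482 bases long and has 0 own bases. MBD2-203 of a reader of methylated DNA had ratios of 4.86, 4.71 and 4.74. Its own level nearly followed the gene, at 77.1, 83.9 and 149.9 FPKM against 15.9, 17.8 and 31.6 for the coding transcript: both were highest with siRNA 2. LRPAP1-203 (4.56, 4.30 and 4.30), AHCTF1-206 (3.92, 3.90 and 3.84), DDA1-204 (3.94, 4.08 and 3.82) and ZNF326-204 (3.95, 4.03 and 3.97) were likewise high in every library. So were REEP3-202 (2.85, 3.46 and 3.31) and MESD-203 (3.29, 3.24 and 2.86). At the other end KTN1-211 of the membrane protein kinectin had 0.0485, 0.0506 and 0.0537. NT5C2-214 of a cytosolic nucleotidase had 0.0801, 0.0881 and 0.0836, and TUBA1C-206 of an alpha tubulin 0.0893, 0.0881 and 0.0895. Ranks among the highest changed: with siRNA 2 the ratio of MBD2-203 was above that of HSPA9-211. The scatter of ratios shows the points along the diagonal.

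**Figure D2:**
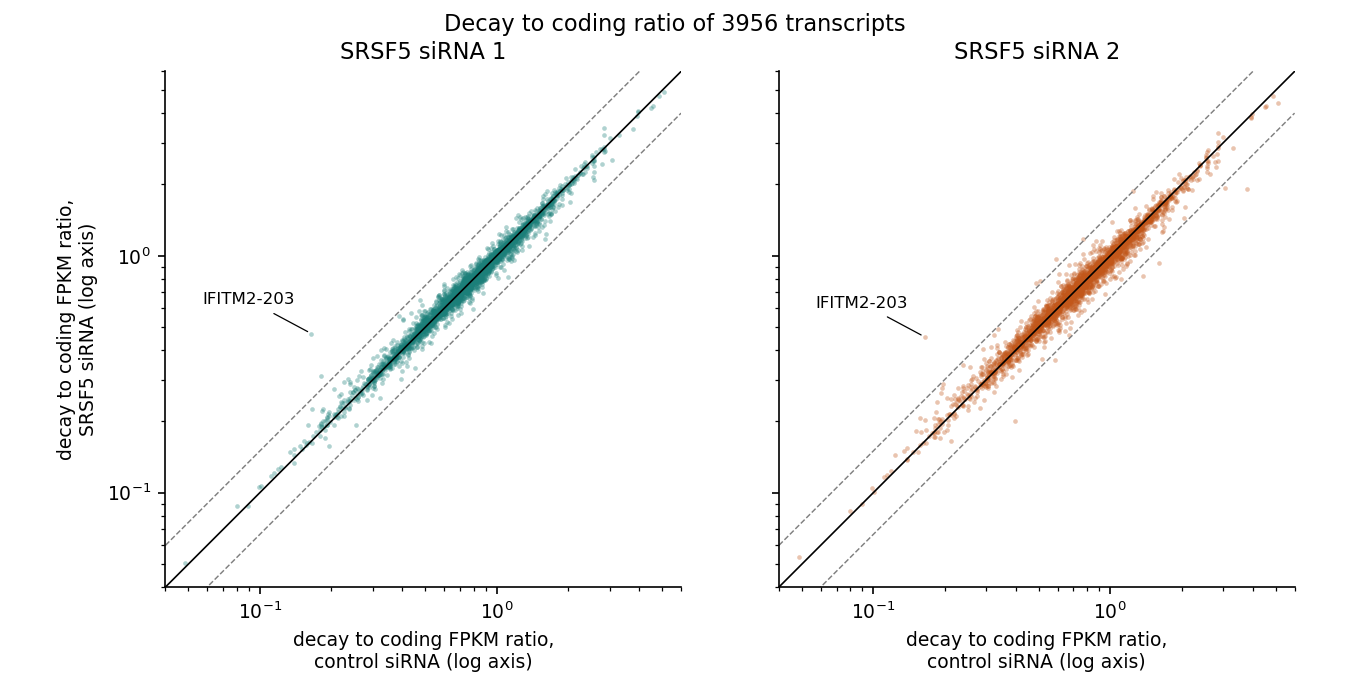
Decay to coding FPKM ratio of 3956 decay transcripts with each SRSF5 siRNA (y, log axis) against the control siRNA (x, log axis), 1 point a transcript. The solid line marks equal ratios and the dashed lines 1.5-fold; IFITM2-203 is the single transcript beyond the upper line in both panels.

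With both SRSF5 siRNAs the listed decay to coding ratio of nearly every member stayed near the control. Decay and coding transcripts share read bases in these values, and 1585 of the 3956 members have no own bases. A steady ratio thus does not show that the decay form was unchanged. The median log2 change was 0.003 with siRNA 1 (SD across members 0.086) and 0.002 with siRNA 2 (SD 0.110). Within 1.2-fold of the control were 98.4% of the members with siRNA 1 and 96.9% with siRNA 2. A change was called where both siRNA libraries differed from the control by 1.5-fold or more, alike in direction, a rule of size with no p-value. It called 1 decay transcript higher, IFITM2-203, and 0 lower. Over all 33073 transcripts of any type set against the highest coding transcript of their gene, the same rule called 9 higher (0.0272%) and 3 lower (0.00907%). Taken alone, siRNA 1 had 2 decay transcripts higher and 0 lower (background 0.0605% and 0.0665%), and siRNA 2 had 6 higher and 6 lower (background 0.194% and 0.212%). Because each library is a bulk sample, fewer cells with a transcript and less of it per cell cannot be told apart.

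Median changes were also near 0 for other types of transcript. Coding transcripts other than the highest had median log2 changes of 0.003 and 0.008, retained intron transcripts 0.001 and -0.002, and those of the lncRNA type in coding genes -0.003 and -0.011. With siRNA 1 and siRNA 2 the SD of the change was 0.086 and 0.107 for coding transcripts, 0.104 and 0.133 for retained introns and 0.116 and 0.137 for the lncRNA type, beside 0.086 and 0.110 for decay transcripts. Transcripts labelled non_stop_decay, which lack a stop codon, numbered 24 and had medians of 0.006 and 0.003 with SD of 0.122 and 0.222. All types together had medians of 0.002 and 0.003. No difference between the types was tested.

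**Figure D3:**
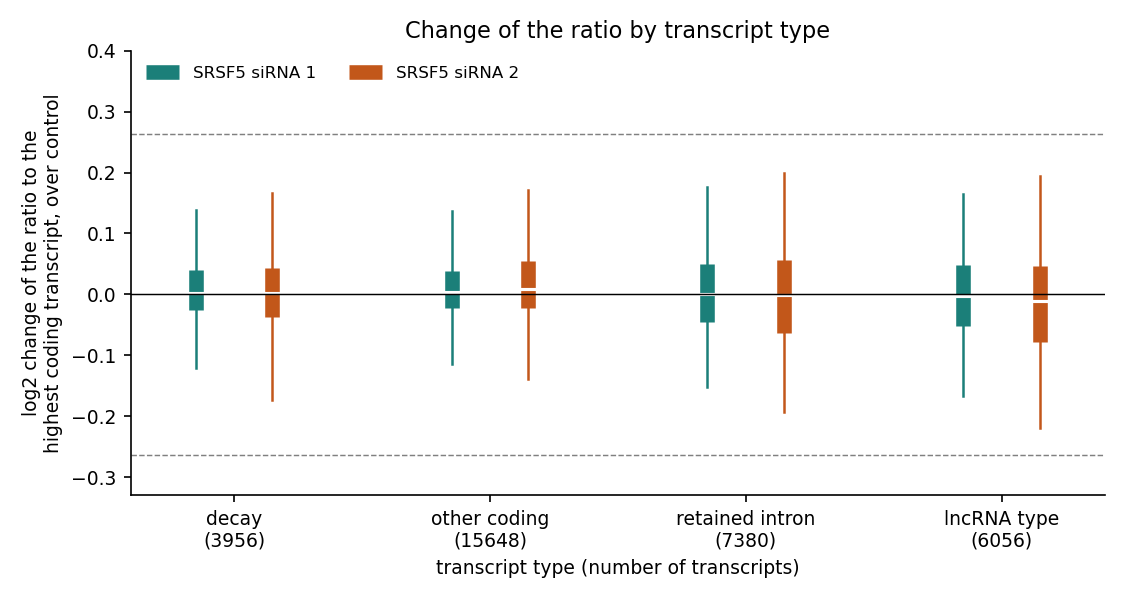
Log2 change of the ratio to the highest coding transcript over the control (y) by transcript type (x), for siRNA 1 and siRNA 2. Boxes run between the quartiles, thin lines the 5th to 95th percentiles and white lines the medians; dashed lines mark 1.2-fold, and the 3956 decay transcripts stay inside them over that range.

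limma, fitted to the log2 ratios of 1 control against 2 siRNA libraries, called 0 of the 3956 decay transcripts at a Benjamini-Hochberg adjusted p below 0.05, and 0 of all 33073 pairs (0%). At an unadjusted p below 0.05 there were 132 decay transcripts and 1344 pairs. The spread in this fit is the difference between the siRNAs, with the lone control assumed to vary like them, which leaves 1 residual degree of freedom. With so few, the fit has little power, and the lack of calls does not show that ratios were unchanged. IFITM2-203 had a log2 change of 1.49 (SE 0.05), an unadjusted p of 0.000816 and an adjusted p of 1 in limma.

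IFITM2-203 stood above the control against 1 coding transcript of its gene and not against the others. IFITM2 encodes an interferon-induced membrane protein that restricts virus entry. The decay transcript had 6.08 FPKM in the control library, 7.54 under siRNA 1 and 12.1 under siRNA 2, and the highest coding transcript IFITM2-201 had 36.9, 16.0 and 26.7. Ratios were 0.165, 0.470 and 0.454, log2 changes of 1.51 and 1.46. Both siRNA libraries were above the control, and close to each other. Of the 382 exon bases of IFITM2-201, however, 351 lie within exons listed for IFITM1, the neighbouring gene. Against the 4 other coding transcripts of IFITM2, which hold 0 such bases, the log2 changes of IFITM2-203 lay between -0.06 and 0.03. Against the sum of all coding transcripts the mean log2 change was 0.70. IFITM2-205, for one, had 6.77, 8.62 and 13.3 FPKM, in step with the decay transcript. On the 135 own bases of IFITM2-203 the lowest possible number of reads was 0 in every library. The values thus do not show that its decay exon held any reads.

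A lower bar of 1.2-fold in both siRNA libraries, added after the values were seen, was passed by 8 decay transcripts higher and 8 lower. The background over all pairs was 103 higher (0.311%) and 91 lower (0.275%), and the decay transcripts' shares of 0.202% each way were no larger. Named after their values were seen, the next higher ones were THOC5-209 and THOC5-201, both of a subunit of the THO complex that couples transcription to mRNA export. THOC5-209 had ratios of 0.165, 0.226 and 0.204 and THOC5-201 0.206, 0.275 and 0.252; both were set against the same coding transcript. Both siRNA libraries were above the control, siRNA 1 more so. RB1CC1-204, of an autophagy scaffold, had 0.185, 0.225 and 0.241. Lower ones included ANKRD11-202, of a chromatin regulator, with 0.396, 0.303 and 0.201, and COX19-202, of a cytochrome oxidase assembly factor, with 1.371, 1.103 and 0.822. SERF2-208 had 2.04, 1.69 and 1.45, and RRP7A-202, of an rRNA processing factor, 3.06, 2.53 and 1.93. In all 4 of these the siRNA 2 library was the lowest. Among the other lower ones, HOOK2-203 had 1.601, 1.175 and 0.9362. TNFAIP2-210, with 0.5275, 0.4304 and 0.434, was the only lower one with siRNA 1 lowest, by little.

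Listed levels of the decay transcripts did change, together with those of their coding partners. Reads on shared exons count for both, so this does not show that the decay forms themselves changed. At least 1.5-fold from the control in both siRNA libraries were 59 decay transcripts of 40 genes higher and 30 of 20 genes lower, 1.49% and 0.758% of the members. Among all 33073 transcripts the shares were 2.11% higher and 1.02% lower. In 86 of these 89 the ratio to the coding transcript stayed within 1.2-fold with both siRNAs. CDH1-210, a decay transcript of E-cadherin, had 6.46, 24.5 and 20.9 FPKM beside 6.96, 25.7 and 21.7 for the coding transcript. TGFBI-209, of a matrix protein induced by TGF-beta, had 33.0, 74.2 and 65.1 beside 83.6, 182.2 and 153.4. SLC2A1-208, of the glucose transporter GLUT1, had 31.4, 14.9 and 11.1 beside 43.0, 19.1 and 14.8. In these 3, named after their values were seen, the decay and the coding value went the same way and the control stood apart from both siRNA libraries. Across the 3956 members the log2 changes of decay and coding transcripts correlated at Pearson r of 0.966 (siRNA 1) and 0.972 (siRNA 2). The 2 share exons and hence reads, and each value shares the 1 control library, so these coefficients are a description.

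The siRNA libraries were also compared with each other. Between siRNA 2 and siRNA 1 the ratio differed by at least 1.5-fold in 13 decay transcripts, 7 higher and 6 lower with siRNA 2. Over all pairs 81 were higher (0.245%) and 69 lower (0.209%). Each siRNA has 1 library, so these are values with no test.

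NUP98-215, of a nuclear pore protein, had 4.61, 4.88 and 2.13 FPKM and ratios of 0.582, 0.658 and 0.363, lower with siRNA 2 than in the other libraries. It held 111.9, 112.3 and 47.8 read equivalents (100 read bases each). DNAJB6-211, of a heat shock cochaperone, had ratios of 0.182, 0.310 and 0.192, with siRNA 1 as the library apart; its own level was steady at 2.35, 2.57 and 2.30 FPKM while the coding value was 12.88, 8.287 and 11.96. BAX-212, of the apoptosis effector, had 0.950, 1.08 and 0.692 from 28.2 to 42.7 read equivalents, and the counting error of its difference between siRNAs was 0.35 beside a log2 difference of -0.64. POLR1D-204, of a subunit of RNA polymerases I and III, had 0.255, 0.194 and 0.338. MKRN1-215, of a ubiquitin ligase, had 0.606, 0.509 and 0.837. In both the control lay between the siRNA libraries.

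Several of the 13 share exon bases with another gene, and from which gene the reads come was not determined. ATP5MF-PTCD1-203, a readthrough transcript, had ratios of 3.77, 3.42 and 1.92, and 233 of its 331 bases are also exon bases of another gene on the same strand. SUN1-222, of a nuclear envelope protein, had 0.765, 0.666 and 1.17, and its 1842 own bases are all shared with another gene. LEPROTL1-207 had 1.25, 1.12 and 1.88, with its 254 own bases likewise shared. In all, 425 of the 3956 decay transcripts share bases with another gene on the same strand.

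SR proteins are the family in which decay exons are best known. Of 27 decay transcripts in the 14 genes of SR proteins and TRA2, 24 of 12 genes were members, with median ratios of 0.724, 0.760 and 0.733. Of these 24, 7 have no own bases. The median log2 change was 0.04 with siRNA 1 and 0.004 with siRNA 2, beside 0.002 and 0.003 over all pairs. Of the 24, 0 reached 1.2-fold in both, where over all pairs 0.311% did so higher and 0.275% lower. At those shares a count of 0 does not set this list, or the lists below, apart. Changes ranged from -0.13 to 0.12 with siRNA 1 and from -0.11 to 0.23 with siRNA 2.

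SRSF3-204 had 36.7, 34.7 and 42.5 FPKM beside 33.8, 30.4 and 39.9 for coding, ratios of 1.09, 1.14 and 1.06. SRSF6-202 had 18.2, 21.4 and 16.8 FPKM beside 19.7, 23.0 and 18.0, ratios of 0.923, 0.930 and 0.935. For both genes decay and coding values had the same order across the libraries. On the own bases of SRSF3-204, SRSF6-202 and SRSF4-206 the lowest possible number of reads was 0 in every library. The values thus do not show that these decay forms were present. SRSF4-206, whose own bases make up 51.7% of its length, was far below coding, at 4.25, 3.58 and 6.41 FPKM beside 42.0, 33.4 and 63.5, ratios of 0.101, 0.107 and 0.101. The widest change in the list was that of SRSF4-204 with siRNA 2, with ratios of 0.123, 0.128 and 0.144. SRSF7 had 6 members, and SRSF7-207 was the lowest of them in log2 change, at -0.13 and -0.11. TRA2B-206 had ratios of 0.593, 0.567 and 0.618, and its 177 own bases held between 12.6 and 19.2 read equivalents in the control, 6.66 to 16.4 with siRNA 1 and 7.56 to 17.7 with siRNA 2. These intervals overlap and are not set against the coding value, so they do not settle whether these own bases differed. The stop codon of TRA2B-206 lies outside them.

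Among hnRNP and other splicing regulators, which include many genes that limit themselves through decay isoforms, 94 decay transcripts of 35 genes were members. Their median log2 changes were 0.01 and 0.006. Past 1.2-fold in both were 0 of 94, beside 0.311% higher and 0.275% lower over all pairs. Of the 94, 36 have no own bases. The most abundant were SFPQ-206 (310.1, 325.4 and 326.6 FPKM; ratios 2.12, 2.11 and 2.00) and SFPQ-202 (155.1, 169.2 and 162.4 FPKM). Although SFPQ-206 was listed above the coding transcript, its 226 own bases held at most 53.2, 60.8 and 54.4 read equivalents. HNRNPK-207 had ratios of 1.23, 1.23 and 1.21, and HNRNPA2B1-203 0.875, 0.861 and 0.858. The largest changes were those of SON-206 with siRNA 1 (0.236, 0.302 and 0.266) and HNRNPH1-219 with siRNA 2 (0.196, 0.210 and 0.277), each under 1.2-fold with the other siRNA.

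Splicing kinases phosphorylate SR proteins. Their 8 members in 4 genes (CLK1, CLK3, PRPF4B and SRPK1) had median log2 changes of -0.002 and -0.01. Past 1.2-fold in both were 0 of 8, beside 0.311% higher and 0.275% lower over all pairs. Of the 8, 5 have no own bases. CLK1-202 had 2.59, 3.04 and 3.84 FPKM and ratios of 1.11, 1.11 and 1.11. SRPK1-208 had 0.498, 0.587 and 0.550, log2 changes of 0.24 and 0.14, both above the control.

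The decay machinery itself had 14 members in 8 genes. Their median log2 changes were 0.007 and 0.05. Past 1.2-fold in both were 0 of 14, beside 0.311% higher and 0.275% lower over all pairs. Of the 14, 4 have no own bases. RBM8A-207, of the exon junction core protein Y14, had ratios of 1.23, 1.06 and 1.16, log2 changes of -0.21 and -0.08. CASC3-205, of another core protein of that complex, had 0.484, 0.515 and 0.562, and CASC3-204 1.06, 1.05 and 1.13. RNPS1-209, of a peripheral junction factor, had 0.734, 0.709 and 0.676. ETF1-207, of the release factor that reads stop codons, had 0.871, 0.905 and 0.824. SMG1-214, of the kinase that phosphorylates UPF1, had 0.463, 0.489 and 0.481. The exon junction genes thus differed in direction, and each change was below 1.2-fold.

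Hosts of snoRNAs, which often carry their cargo in introns of messages sent to decay, gave 35 members in 12 genes with median log2 changes of -0.004 and -0.02. RACK1-219, RACK1-210 and RACK1-224 each changed by 0.01 with both siRNAs. HSPA9-212 had ratios of 0.890, 0.831 and 0.749, the lowest change of the list with siRNA 2, at -0.25. Ribosomal protein genes, several of which are known to autoregulate through decay exons, gave 53 members in 34 genes with medians of 0.001 and 0.003. RPS3-204 had 1.25, 1.24 and 1.23, RPL27-204 1.36, 1.34 and 1.32, and RPL5-204 0.738, 0.718 and 0.722. In both lists 0 members passed 1.2-fold in both siRNA libraries, beside 0.311% higher and 0.275% lower over all pairs. No own bases were held by 15 of the 35 snoRNA host members and 21 of the 53 ribosomal protein members.

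Members were set apart by the share of their bases that no coding transcript holds. With no own bases the SD of the log2 change was 0.080 and 0.104 for siRNA 1 and siRNA 2, and with at least 30% own bases 0.114 and 0.128. Between them it was 0.074 and 0.098 with up to 10%, the lowest of the classes, and 0.096 and 0.125 with 10 to 30%. The control ratio had a median of 0.873 with none, 0.803 with up to 10%, 0.732 with 10 to 30% and 0.589 with at least 30%. Median changes lay between -0.004 and 0.006 in all 4 classes. The most frequent largest own stretch, among members with at least 30 own bases, was a whole internal exon (1044 of 1993), followed by an extended exon (519), an extended transcript end (182), a whole terminal exon (162) and a stretch between coding exon bases, such as an intron kept in (86). These kinds had median control ratios of 0.752, 0.716, 0.724, 0.658 and 0.613.

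**Figure D4:**
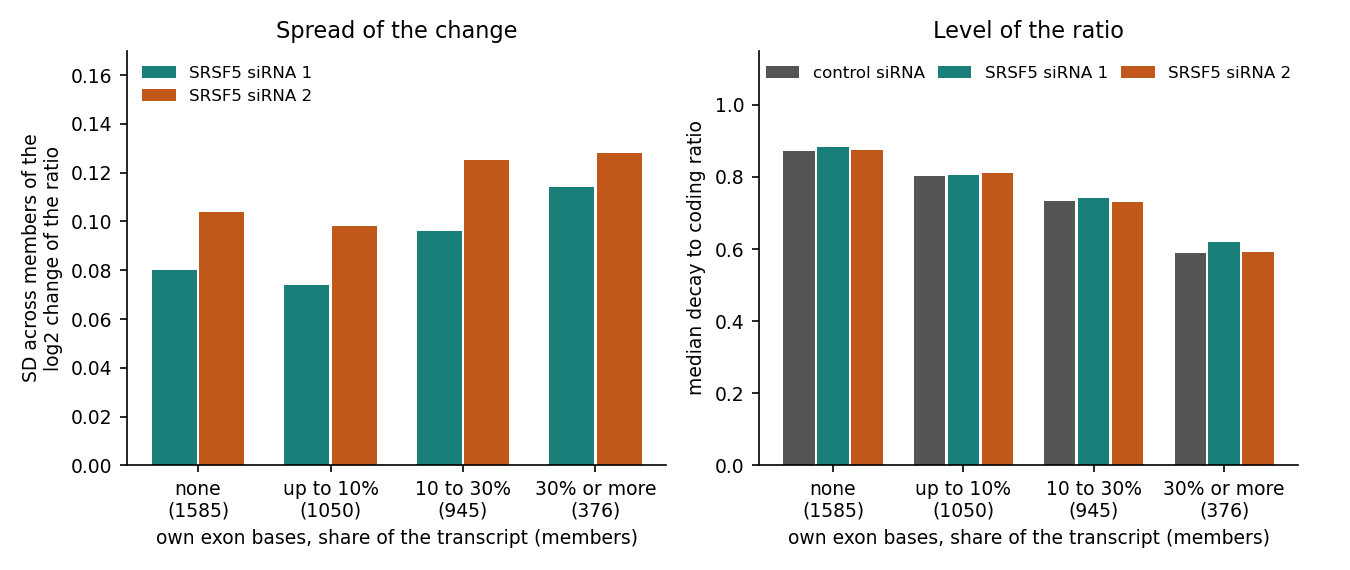
Members by the share of their exon bases found in no coding transcript of the gene (x, number of members in brackets). Left, SD across members of the log2 change of the ratio for each siRNA, 0.080 to 0.114 for siRNA 1 between the outer classes; right, median decay to coding ratio in each library, 0.873 to 0.589 in the control.

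Reads on own bases were examined next. Where a base counts once for each transcript it overlaps, the totals of the transcripts of a gene fix the number of read bases on a stretch exactly in few cases, and otherwise give a lowest and a highest possible value. With at least 30 own bases, 21 members were fixed exactly, of which 3 had enough reads (a mean of at least 10 read equivalents), and 0 of 3 changed 1.5-fold in both siRNA libraries relative to the coding transcript. Bounds, added after the values were seen, were found for 1809 members. For 184 they could not be fitted, since no set of base counts of 0 or more on the exon stretches gave the listed transcript totals, so in their genes the totals are not simple sums over shared bases. The lowest possible value was 0 in every library for 1487 of the 1809, so for most the deposited values do not show that the decay form was present. In 141 the own bases held at most 5% of the transcript's read bases in every library. The highest possible value was 0 in 5, among them RPL22L1-204 and RPL22L1-206, which were listed at 8.78 and 8.69 FPKM in the control.

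A lowest value above 0 in every library, a mean lowest value of at least 10 read equivalents, and own bases in no other gene left 72 members of 63 genes. The bounded change was at least 1.5-fold higher in both siRNA libraries in 1 of 72 (1.39%) and lower in 0 (0%). The interval held 0 change for 64 of 72 with siRNA 1 and 65 with siRNA 2, and the median interval was 5.02 and 5.35 log2 units wide, so most of these could hide a large change. In 45 of the 72 another transcript that is not coding also covers some of the own bases, so the reads need not come from the decay form. Comparable bounds for other transcript types were not computed.

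CARD19-202 was the one called. CARD19 encodes a protein with a caspase recruitment domain. Its 1436 own bases, in stretches between coding exons (chr9:93110722-93111878 and chr9:93111939-93112217), held 29.8 to 31.2 read equivalents in the control, 39.8 to 40.2 with siRNA 1 and 74.2 to 75.7 with siRNA 2. The control was lowest and siRNA 2 highest, with no overlap. Per base and relative to the coding transcript CARD19-201, the log2 change was 0.84 to 0.92 with siRNA 1 (counting SE 0.35) and 1.78 to 1.87 with siRNA 2 (counting SE 0.31). The ratio of whole transcripts showed less of it, 0.418, 0.457 and 0.533. All 1436 bases are also in CARD19-206, a transcript of the lncRNA type, and from which of these transcripts the reads come cannot be told apart.

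SNRNP70-202 differed between the siRNAs. SNRNP70 encodes the U1-70K protein of the U1 snRNP, which recognises 5′ splice sites. Its 1469 own bases held 50.5 to 62.2 read equivalents in the control, 59.5 to 69.7 with siRNA 1 and 12.5 to 17.2 with siRNA 2. The siRNA 2 library stood apart and low, and relative to coding its log2 change was -2.56 to -1.79 (counting SE 0.46), while with siRNA 1 it was 0.14 to 0.67. The ratio of whole transcripts, 0.273, 0.283 and 0.266, did not show this. Of the 1469 bases, 1177 are also in the retained intron transcript SNRNP70-203.

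Smaller movements were bounded in 4 others. ERCC5-208, of a DNA repair endonuclease, held 23.0, 33.5 and 46.5 to 46.6 read equivalents, log2 changes relative to coding of 0.32 and 0.74 to 0.75, with counting SE of 0.39 and 0.37. MESD-207, of a chaperone for LDL receptor family proteins, held 17.0, 13.0 and 13.0, changes of 0.48 and 0.36 beside coding values of 7.22, 4.19 and 4.63 FPKM, with counting SE of 0.53 in both. RPL30-206 held 6, 7.5 and 16.7, changes of 0.55 and 1.49 with counting SE of 0.79 and 0.69. All 116 own bases of RPL30-206 are also in the retained intron transcript RPL30-207. RPL26-211, whose own exon ends the reading frame shown above, was the one lower in both, at 14.8 to 17.3, 6.79 to 10.0 and 11.1 to 13.3, changes of -1.03 to -0.25 and -0.66 to -0.17 with counting SE of 0.67 and 0.57. Apart from ERCC5-208 and RPL30-206 with siRNA 2, these changes are within about their counting error.

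Before counting error, the whole interval stayed within 1.5-fold with both siRNAs in 2 of the 72, MESD-207 and TXNL4A-205. For MESD-207 a counting SE of 0.53 leaves a larger change possible. TXNL4A encodes a protein of the U5 snRNP. Its own internal exon held 106.5 to 127.9, 58.6 to 74.7 and 78.98 to 96.51 read equivalents, and relative to coding the change was -0.45 to 0.16 and -0.34 to 0.21, with counting SE of 0.23 and 0.21. MRPL48-213, of a mitochondrial ribosome protein, held 26.9 to 36.5, 19.3 to 25.1 and 14.4 to 20.5, changes of -0.43 to 0.38 and -0.86 to 0.09, which leaves its direction undetermined.

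**Figure D5:**
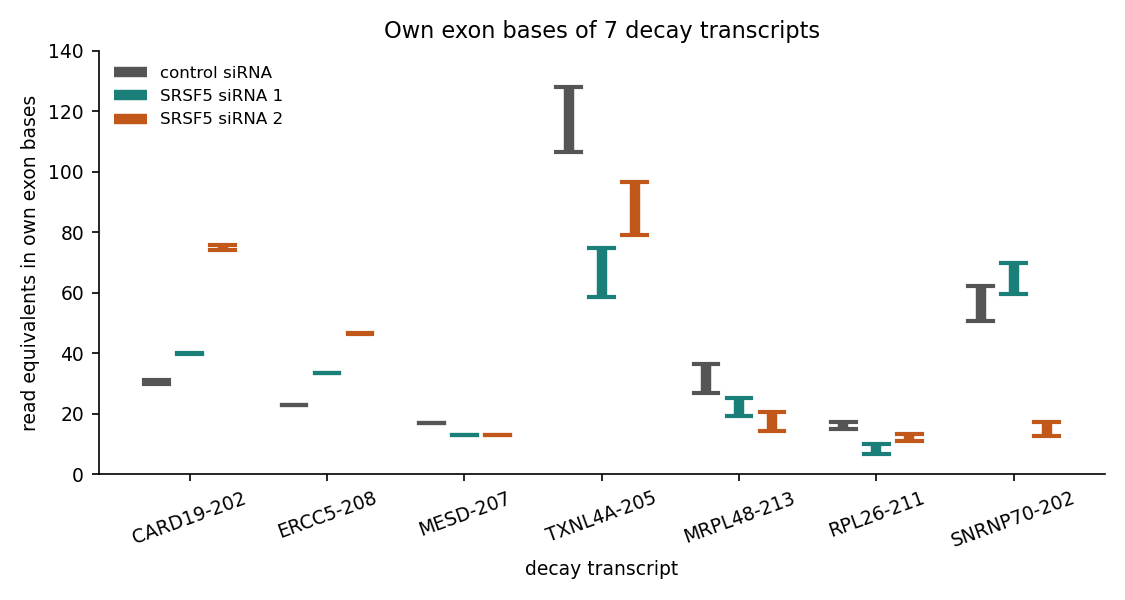
Read equivalents (100 read bases each, y) in the own exon bases of 7 decay transcripts (x) in each library. Bars run from the lowest to the highest value the transcript totals allow; CARD19-202 is higher in both siRNA libraries, and SNRNP70-202 is at 12.5 to 17.2 with siRNA 2 against 50.5 to 62.2 in the control.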

How the data were processed

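RNA of 3 HaCaT libraries was sequenced with an mRNA kit, per the labels' protocols. The authors deposited FPKM per transcript, with exons and length per the file headers. An aligner or counter is not given in the sources used here. GRCm38, mm10 and GRCh38.p12 are named in the submitters' processing notes, and 3877 of 3956 members matched GENCODE 29 (GRCh38) by transcript identifier and version. Stop codons were taken only where the exons matched as well. In each library 100% of the products of FPKM and length were whole multiples of a common unit (tolerance 0.05), taken as base overlaps; 100 bases are a read equivalent. The 100 bases are a set value and not a measured read length. Errors named as counting errors rest on it, and a larger value would make them larger. They leave out the counting error of the coding value and PCR duplication.

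Ratios are decay FPKM over the highest coding FPKM of the gene in the same library, on the log2 scale with no pseudocount. limma 3.58.1 in R 4.3.3, with trend, was fitted to all pairs, and it and the bounds (linear programs, scipy 1.17.1) were tested on simulated data. No source says that cultures were separate, so p-values measure only the spread between these libraries. Members and gene lists were chosen with earlier results of these data known. Named were called members, the 4 largest siRNA differences each way, the 8 highest and lowest ratios, up to 6 members of each list by level, members with enough reads on own bases, and members at the threshold; others are marked. Alternatives changed the call size, level filter, pseudocount (1 or 0.1), reference, centring, own share (20%) and libraries.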

Additional observations from a re-analysis of the deposited data

How the results depend on the processing

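The count of decay transcripts at least 1.5-fold from the control in both siRNA libraries was 1 of 3956, and it was 16 at 1.2-fold and 407 of 13203 with no level filter. Over all pairs 0.311% were higher and 0.275% lower at 1.2-fold. Leaving out 1 siRNA library gave 2 to 12: 12 without siRNA 1 and 2 without siRNA 2. Over all pairs 0.194% were higher and 0.212% lower with siRNA 2 alone, and 0.0605% and 0.0665% with siRNA 1 alone. Between the siRNAs the count of 13 of 3956 became 0 at 2-fold, 141 at 1.2-fold, 29 of 6281 at 1 FPKM, 4 of 1620 at 5 FPKM, 980 of 13203 with no level filter, 7 with a pseudocount of 1, 8 of 4084 against summed coding transcripts, 4 of 741 with at least 20% own bases and 8 of 2209 with 1 decay transcript per gene. For own exon bases the 0 calls of 3 tested became 3 of 704 outside the highest coding transcript only (ATP5MG-206, GSR-203 and MTX2-202), 1 of 72 with bounds, and 0 to 1 with 1 siRNA library left out. IFITM2-203 changed by 0.70 on the log2 scale against summed coding transcripts and 1.38 with a pseudocount of 1, beside 1.49. Other counts under changed settings have no share over all transcripts beside them, so they do not set decay transcripts apart. limma called no decay transcript in any alternative run. Without 1 siRNA library limma has no residual degrees of freedom and was not run. The 1.2-fold call, the bounds and a count without members that share bases with another gene (1 and 10 calls) were chosen after seeing the data. No paired analysis was possible because there was only 1 control library. Of 1809 bounded members, 106 had at most 10 read equivalents on own bases in every library, and 1487 had a lowest possible value of 0. The causes of these shifts were not tested.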
